A study of Homo sapiens with 12 samples.

Results

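The 39 protein-coding HOX genes of the human RefSeq gene table (symbols HOXA, HOXB, HOXC or HOXD followed by a number) were examined in H3K27ac peak lists of a myeloma cell line, as 39 of 19970 protein-coding genes on chromosomes 1 to 22 and X. They were chosen by symbol alone, and no measured value entered the choice. Of these, 11 lie in the HOXA cluster, 10 in HOXB, 9 in HOXC and 9 in HOXD. H3K27ac, acetylation of lysine 27 on histone H3, was mapped by CUT&RUN, in which an antibody directs a nuclease to cut out the chromatin that carries the mark. RPMI 8226 is an established multiple myeloma line, that is, a tumour of plasma cells. There were scramble control cells and CEBPB knockout cells, CEBPB being the gene that encodes C/EBPβ, and both were given vehicle (DMSO) or 10 µM dexamethasone, a synthetic glucocorticoid, for 2 h. Each of the 4 combinations had 3 libraries, 12 in all, made from 100000 cells each. The labels do not say if the knockout line is a single clone, and they name no separate cultures for the libraries, so a p-value here measures only the spread between libraries.

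HOX genes encode homeodomain transcription factors that set position along the body axis in the embryo, and they sit in 4 clusters in the order in which they act along that axis. In blood cells a part of the HOXA, HOXB and HOXC genes is active in stem and progenitor cells and is turned down as cells mature, while HOXD genes are mostly silent there. Silent HOX clusters are textbook targets of the Polycomb proteins, which place methyl groups on the same lysine 27, and trithorax-group proteins such as KMT2A (MLL1) oppose them. A histone carries either acetyl or methyl groups at that lysine, so an H3K27ac peak marks a stretch of active promoter or enhancer.

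The promoters of the fourth paralogs show how unlike the starting points of HOX genes are in sequence, and they are printed because the covered and uncovered genes described below include them. The 250 bases before the RefSeq start (build GRCh38.p14) are given 5′ to 3′ on the gene's own strand, with each CG in capitals, the dinucleotide that forms CpG islands. HOXA4 (chr7:27130758-27131007, minus strand, 26 CG, 70.0% G or C) and HOXD4 (chr2:176151300-176151549, plus strand, 4 CG, 47.6% G or C) had no peak within 1 kb in any library. The start shared by HOXC4 and HOXC5 (chr12:54016638-54016887, plus strand, 14 CG, 50.8% G or C) had a peak within 1 kb in all 12 libraries and none over the window itself. HOXB4 has no entry in the promoter table.
HOXA4: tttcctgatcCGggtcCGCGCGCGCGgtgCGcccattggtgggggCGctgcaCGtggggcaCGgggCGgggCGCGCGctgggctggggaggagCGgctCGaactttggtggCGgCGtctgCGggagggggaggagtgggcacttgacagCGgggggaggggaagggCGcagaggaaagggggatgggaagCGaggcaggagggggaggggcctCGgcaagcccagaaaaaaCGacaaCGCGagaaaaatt
HOXC4: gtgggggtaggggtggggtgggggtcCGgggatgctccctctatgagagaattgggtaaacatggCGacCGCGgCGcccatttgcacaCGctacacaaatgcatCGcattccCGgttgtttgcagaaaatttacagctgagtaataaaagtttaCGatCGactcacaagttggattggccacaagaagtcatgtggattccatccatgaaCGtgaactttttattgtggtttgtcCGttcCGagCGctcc
HOXD4: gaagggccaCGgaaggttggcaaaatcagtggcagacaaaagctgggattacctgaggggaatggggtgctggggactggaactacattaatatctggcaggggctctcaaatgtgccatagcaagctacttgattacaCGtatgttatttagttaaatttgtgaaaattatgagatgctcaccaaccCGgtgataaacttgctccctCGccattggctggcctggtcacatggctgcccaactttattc
hsa-miR-10a-5p: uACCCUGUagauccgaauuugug
The last line is the mature miRNA of MIR10A, a microRNA gene inside the HOXB cluster, with its seed (bases 2 to 8) in capitals; its hairpin lies 633 bp from a region that had a peak in every library. The table matched 20 of the 39 symbols through 26 promoters, which held a median of 19.5 CG against 16 over all 22034 promoters. A C/EBP-type motif, TTGCNNAA on either strand, was found in 1 of the 26 HOX promoters, that of HOXC4 and HOXC5 (3.8%, against 7.5% of all promoters). The HOX and PBX type motif TGATTNAT was found in 2 (7.7%, against 1.8%), on either strand. These letters were searched in the 250 bases alone and describe the sequence, not binding.

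The values are base pairs covered by the authors' peaks, either within 5 kb of a gene (its span with 5 kb on each side) or over a whole cluster (from 5 kb before its first HOX gene to 5 kb after its last). Each library listed 41164 to 56421 peaks, which covered 48.0 to 66.4 Mb. Under DMSO the covered length was 58.9 ± 6.8 Mb (SD, n = 3) in scramble and 58.2 ± 5.5 Mb in knockout libraries, and under dexamethasone it was 52.7 ± 6.2 and 54.4 ± 4.0 Mb. The lists hold no read counts, so depth is unknown and a gene without a peak is only listed at 0. In these bulk libraries a mark in fewer cells and a weaker mark in each cell cannot be told apart. Of 10 plasma cell markers, 9 were covered in all 12 libraries, and their summed coverage was 51.6 to 59.1 kb in scramble and 60.6 to 64.6 kb in knockout libraries, ranges that do not overlap; its part in the HOX results was not tested. Of 5 markers each of T cells, myeloid cells and stromal cells, 2, 2 and 2 were covered in all 12 libraries, and 0, 1 and 3 were at 0 in every library. CEBPB itself was covered over 2968 to 3431 bp in all libraries (limma log2 difference for the knockout −0.04, adjusted p = 0.82). A knockout of the coding sequence need not change acetylation at the gene, so this checks neither the label nor the deletion.

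Most HOX genes carried no H3K27ac peak in any library. Of the 39 genes, 21 (53.8%) had no covered base within 5 kb in any of the 12 libraries, against 16.7% of all 19970 genes, and 8 (20.5%) were covered in all 12, against 67.2%. Another 4 were covered in 1 or 2 libraries and 6 in 3 to 11. The median over genes of the mean coverage was 0 bp for the HOX genes and 1671 bp for all genes. Each window holds the whole gene span, so a longer gene has more room for peaks. Genes of like length were not compared. In a single library 8 to 14 of the 39 were covered.

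The 8 genes covered in every library lay in 2 clusters. HOXB had 9 of its 10 genes covered in at least 1 library, 4 of them in all 12 (HOXB3, HOXB4, HOXB7 and HOXB8), and the gene without any peak was HOXB2. In HOXC, HOXC4, HOXC5, HOXC6 and HOXC8 were covered in all 12 libraries and HOXC9 to HOXC13 in none. HOXA11 and HOXA2 to HOXA6 had no peak in any library, and neither had 8 of the 9 HOXD genes, with HOXD13 the exception. By position in the clusters, the central paralogs 4 to 8 supplied 7 of the 8 genes covered in all libraries, out of 15 genes. HOXB3 was the only 1 of the 8 anterior genes (paralogs 1 to 3), and there was none among the 16 posterior genes (paralogs 9 to 13). Genes are not independent here: HOXC4, HOXC5 and HOXC6 share their start and 1 peak, HOXC8 reaches that peak only with the edge of its window, and HOXB7 and HOXB8 share peaks. The only region of HOXB4 also lies in HOXB3, and the only region in the HOXB5 window overlaps HOXB6. The HOXB6 window reaches the edge of the region at HOXB7. Divided into bins of 500 bp, HOXB had 3 of 421 bins covered by at least 250 bp in all 12 libraries and HOXC 2 of 256, while HOXA (236 bins) and HOXD (228) had none. Merged over libraries, the peaks made 21 regions in the 4 spans, of which 4 (19.05%) were covered in all 12 libraries, against 23.9% of the 103542 regions made in the same way genome-wide.

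**Figure D1:**
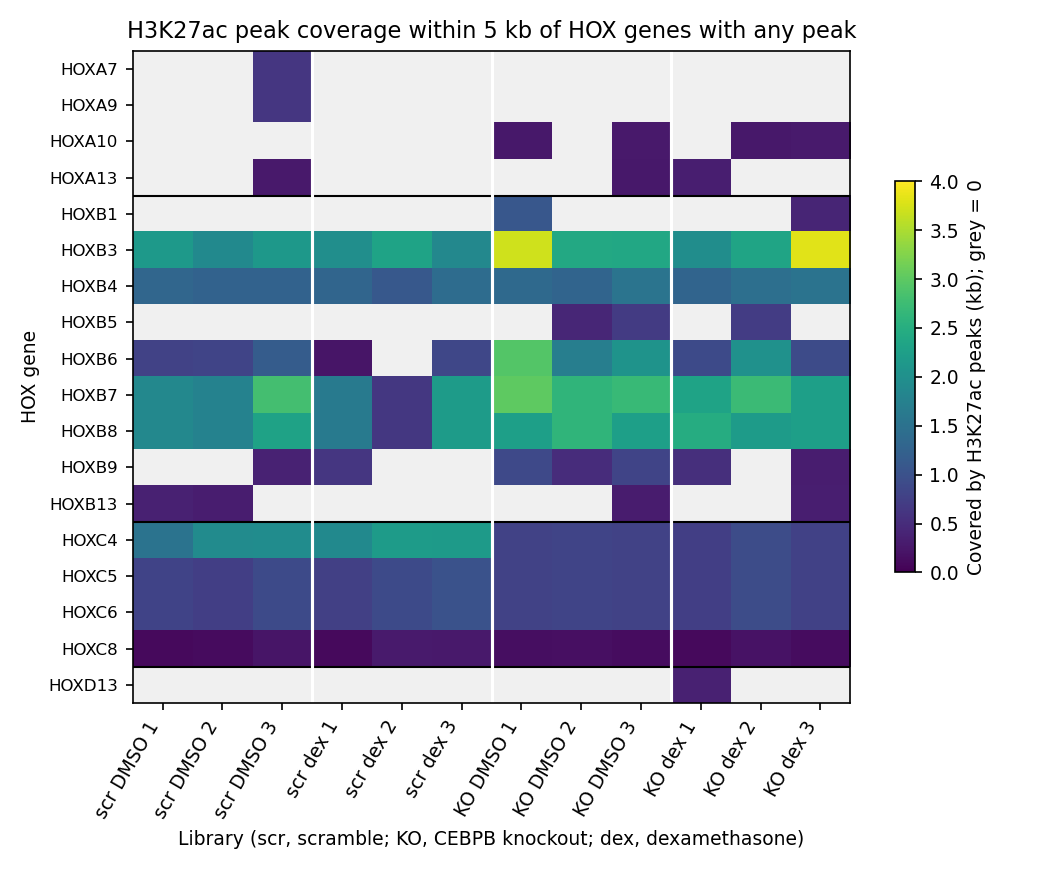
Base pairs (kb, colour scale) covered by H3K27ac peaks within 5 kb of the 18 HOX genes covered in at least 1 library (rows, by cluster) in each of the 12 libraries (columns, by group); grey is 0. The rows coloured in all 12 libraries lie in HOXB and in HOXC4 to HOXC8, and HOXC4 is brighter in the 6 scramble libraries than in the 6 knockout libraries.

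The HOXC cluster (chromosome 12, 53933831 to 54061030, 127.2 kb) held 2 regions with peaks. The first, chr12:54017475-54018503, began 587 bp inside the shared start of HOXC4, HOXC5 and HOXC6 and was covered in all 12 libraries. It was among the stronger HOX peaks, with the authors' fold enrichment over background at 6.95 to 8.88, where the median peak of all lists had 3.44. Covered length there was 806, 736 and 893 bp in scramble cells with DMSO, 761, 904 and 1002 bp with dexamethasone, 785, 822 and 787 bp in knockout cells with DMSO and 745, 922 and 780 bp with dexamethasone. The genotypes overlapped, with means of 850 ± 101 bp in scramble and 807 ± 61.5 bp in knockout libraries (SD, n = 6).

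The second region, chr12:54052726-54054236, lay further along inside the HOXC4 span and was present in scramble cells alone. HOXC4 encodes a central HOX factor that is expressed in lymphoid cells. The region was covered in 6 of 6 scramble libraries, over 712 to 1293 bp (median 1159), and in 0 of 6 knockout libraries. All 6 scramble peaks had a −log10 q of at least 2 (2.03 to 6.59) and a fold enrichment of 3.42 to 5.28. Of all regions genome-wide 1.54% were covered in all 6 scramble libraries and in no knockout library, so the pattern at HOXC4 is 1 of 1591. An absent peak is not a measured absence of the mark, since the files give no signal below the authors' threshold. The gene table used here holds gene spans without exons or separate transcripts. Whether the region is exonic, intronic or at the start of another HOXC4 transcript was not examined.

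Through this second region, HOXC coverage was lower in the knockout. The cluster held 1518, 1925 and 1948 bp in scramble cells with DMSO, 1900, 2197 and 2181 bp with dexamethasone, 785, 822 and 787 bp in knockout cells with DMSO and 745, 922 and 780 bp with dexamethasone. Every knockout library lay below every scramble library. The means were 807 ± 61.5 bp and 1945 ± 247 bp (SD, n = 6), a difference of −1138 bp (two-sided exact permutation test stratified by treatment, p = 0.005, the smallest it can give, and 0.02 adjusted over 8 cluster tests). It was −999 bp under DMSO and −1277 bp under dexamethasone. The difference kept its call without any 1 library.

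**Figure D2:**
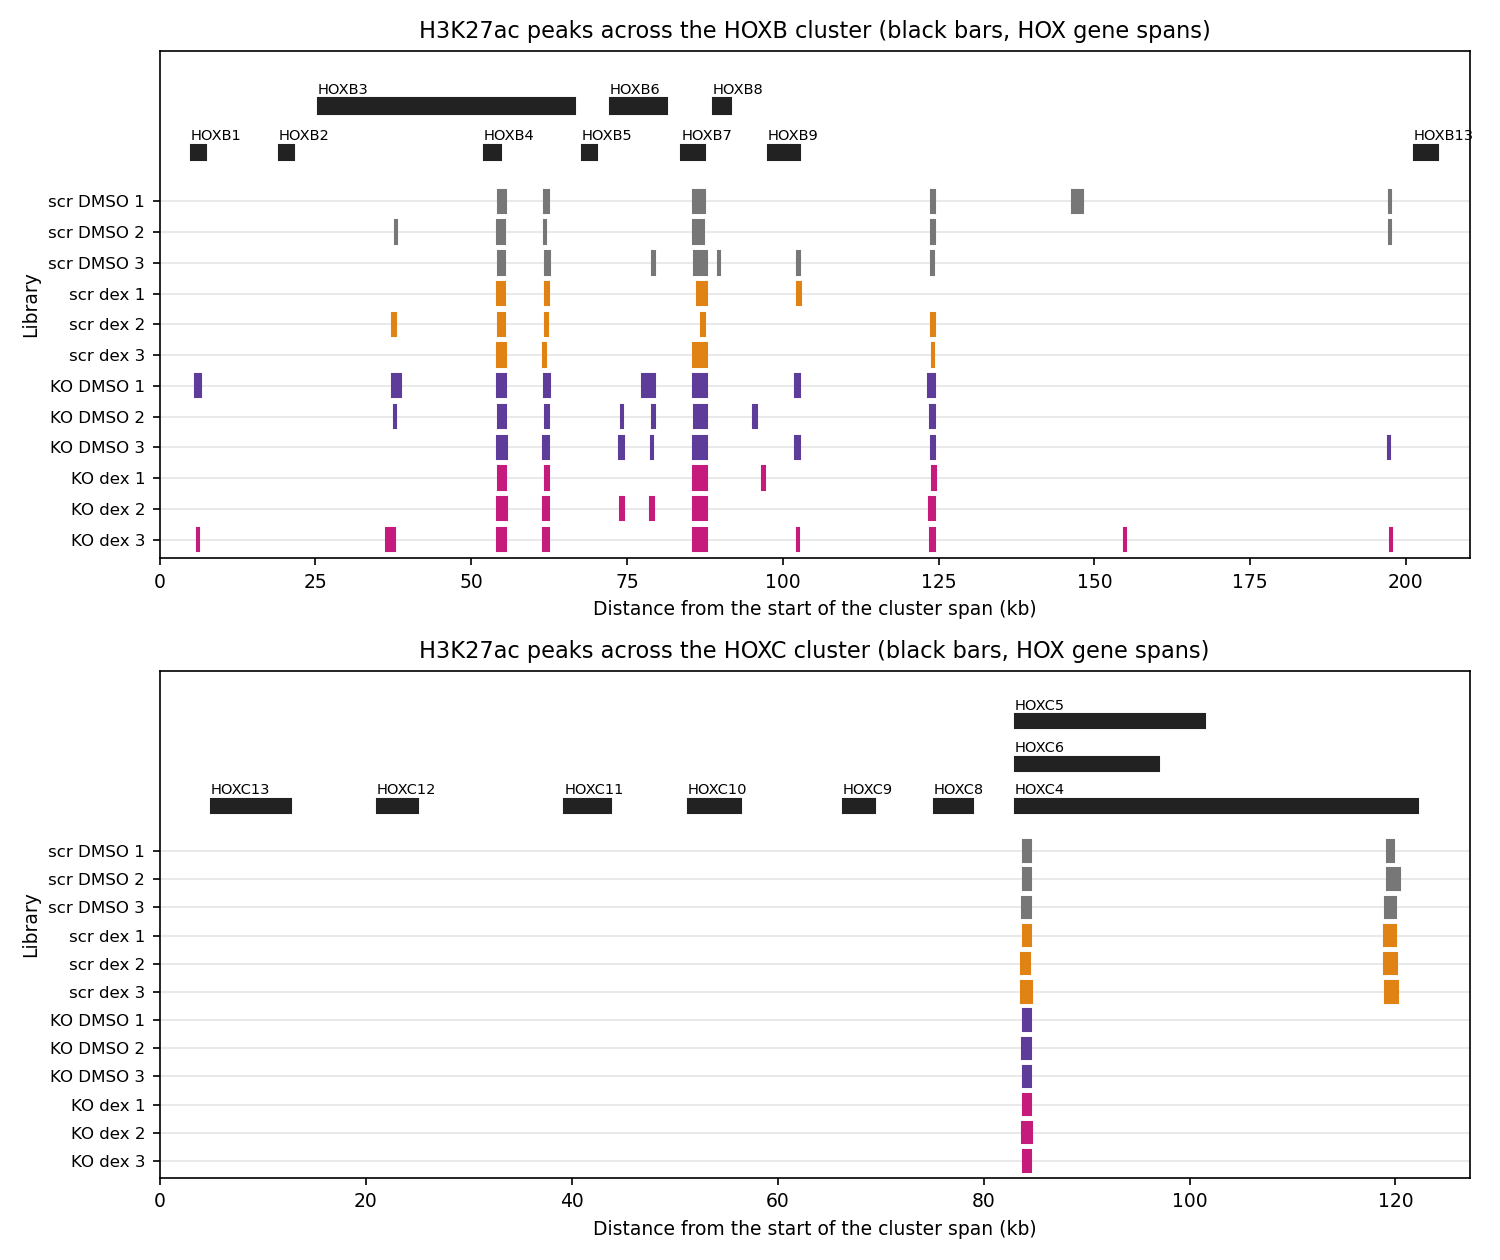
H3K27ac peaks (coloured blocks) of the 12 libraries (rows) along the HOXB and HOXC clusters, by distance in kb from the start of each cluster span, with HOX gene spans as black bars; scr is scramble, KO is CEBPB knockout, dex is dexamethasone. The left HOXC column is filled in all 12 libraries and the right one in the 6 scramble libraries, while HOXB has 3 columns filled in all 12.

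The HOXB cluster (chromosome 17, 48523526 to 48733750, 210.2 kb) was the most covered of the clusters, with 15 regions, and its coverage was higher in the knockout. It held 6820, 4630 and 5787 bp in scramble cells with DMSO and 11138, 6893 and 7573 bp in knockout cells with DMSO. With dexamethasone it held 4243, 3564 and 4324 bp in scramble and 5479, 6709 and 8335 bp in knockout cells. Within each treatment every knockout library was above every scramble library, while over both treatments the genotypes overlapped. Knockout libraries averaged 7688 ± 1939 bp and scramble libraries 4895 ± 1191 bp (SD, n = 6), a difference of 2793 bp or a ratio of 1.57 (exact permutation p = 0.005, 0.02 adjusted over 8 tests). It was 2789 bp under DMSO and 2797 bp under dexamethasone. The call ended without scramble DMSO library 2 or without any of scramble dexamethasone libraries 1, 2 and 3 (adjusted exact permutation p = 0.06 in each case, difference 2514 to 2863 bp). It also ended when peaks with a −log10 q under 2 were left out (1765 bp, adjusted exact permutation p = 0.12).

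In HOXB 3 regions were covered in all 12 libraries. The first, chr17:48577628-48579205, overlaps the end of HOXB4 that is higher in coordinate and lies within the HOXB3 span. HOXB4 is known as a factor that expands blood stem cells, and HOXB3 is an anterior gene expressed in the same cells. Its covered length was 1106 to 1408 bp (median 1279) in scramble and 1283 to 1544 bp (median 1413) in knockout libraries, which overlap. The second, chr17:48585112-48586205 within HOXB3, was covered over 327 to 870 bp in scramble and 682 to 897 bp in knockout libraries. The third, chr17:48609061-48611399, overlapped HOXB7, a central gene found overexpressed in many tumours, and was covered over 642 to 2197 bp in scramble and 2105 to 2313 bp in knockout libraries. The lowest value, 642 bp, was that of scramble dexamethasone library 2. The authors' −log10 q of the first region was 5.18 to 8.21 in the scramble lists and 11.9 to 15.7 in the knockout lists, and of the second 1.27 to 3.84 and 4.39 to 10.1. These scores move with read depth, which is unknown, so they are given as each list's own values without a test; the median −log10 q over all peaks was 2.36 to 4.32 in scramble and 2.66 to 3.83 in knockout lists.

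The HOXB cluster also held small regions that came and went between libraries. Around HOXB6, a central gene, chr17:48597324-48598038 was covered in 0 scramble and 3 knockout libraries and chr17:48600897-48603041 in 1 scramble and 4 knockout libraries; both overlap the antisense gene HOXB-AS3, and the peak lists carry no strand. HOXB1, the anterior gene that patterns the hindbrain, had a peak in knockout DMSO library 1 (1092 bp) and knockout dexamethasone library 3 (416 bp) and in no other. HOXB13, a posterior gene known from the prostate, was covered in 2 scramble (366 and 318 bp) and 2 knockout libraries (297 and 337 bp), by a region on its neighbour PRAC2. Of the 76 peaks in the HOXB span 60.5% had a −log10 q of at least 2, against 62.0% of all 573987 peaks.

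Between HOXB9 and HOXB13 the cluster holds a noncoding gene with a peak of its own. Inside the HOXB span, chr17:48646898-48648134 overlaps LINC02086, a long noncoding RNA gene, and was covered in 11 of 12 libraries. Covered length was 639, 635 and 475 bp in scramble cells with DMSO, 0, 607 and 265 bp with dexamethasone, 1096, 919 and 671 bp in knockout cells with DMSO and 666, 943 and 860 bp with dexamethasone. Every knockout library was above every scramble library, as at 2.63% of all regions. This was the only region inside the HOXB span with that pattern. Below HOXB1 and outside the span, chr17:48504828-48506993 (1086 to 1848 bp in scramble, 1893 to 2123 bp in knockout libraries) and chr17:48517129-48518206 (252 to 607 and 638 to 883 bp) showed it too.

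In HOXA and HOXD peaks were few and weak. The HOXA cluster (chromosome 7, 27087993 to 27205091, 117.1 kb) had 8 peaks in all 12 libraries together, 258 to 635 bp wide, and 1 of them had a −log10 q of at least 2. HOXA10, a posterior gene that is active in myeloid progenitors, had a peak in 0 of 6 scramble and 4 of 6 knockout libraries (258, 277, 265 and 289 bp, at chr7:27171492-27171822, over HOXA10-AS as well). HOXA7 and HOXA9, which KMT2A fusions activate in leukaemia, shared 1 peak of 635 bp in scramble DMSO library 3. HOXA13 was covered in 1 scramble (280 bp) and 2 knockout libraries (263 and 334 bp). Scramble libraries averaged 152 ± 374 bp over the cluster and knockout libraries 281 ± 173 bp (SD, n = 6; difference 128.5 bp, exact permutation p = 0.565, 0.904 adjusted). The difference rested on single libraries: it was 281 bp without scramble DMSO library 3 (exact permutation p = 0.02, 0.0533 adjusted), 52.2 bp without scramble DMSO library 1 or 2, and it moved by over 1.5 times without knockout DMSO library 2 (195 bp) or 3 (60 bp). At equal covered length it was 237 bp (exact permutation p = 0.02, 0.0533 adjusted), and with peaks of −log10 q of at least 2 alone it was 48.2 bp. HOXD (chromosome 2, 176082487 to 176195907, 113.4 kb) had 1 peak, of 366 bp beside HOXD13, in knockout dexamethasone library 1, and its other 11 libraries were at 0. With values this near 0 a difference could not have been told from the authors' peak threshold.

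**Figure D3:**
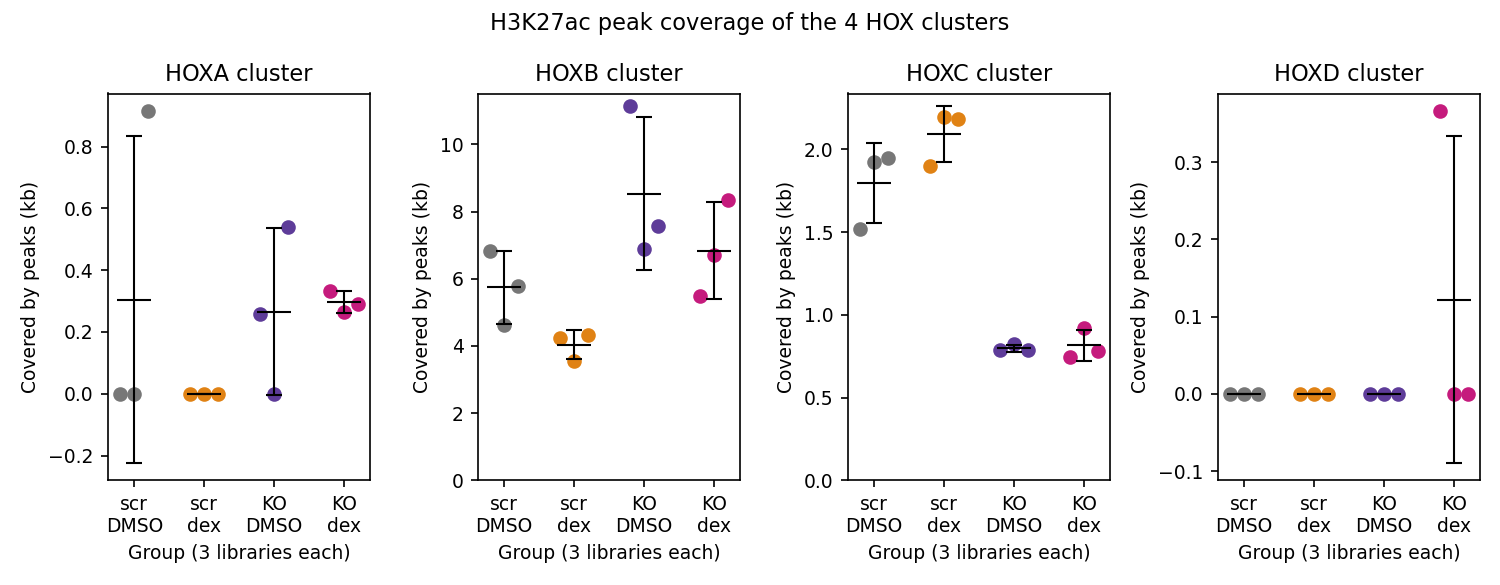
Base pairs (kb) covered by H3K27ac peaks over each HOX cluster in the 3 libraries of each group (points), with the mean and SD (bars); the vertical scales differ between clusters. All HOXC points of knockout cells lie below 1 kb and all of scramble cells above 1.5 kb, and HOXB points are higher in knockout than in scramble cells within each treatment.

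Gene by gene, 14 of the 39 HOX genes were covered in at least 3 libraries and could be tested with limma on log2(base pairs + 500), together with 15740 genes in all. The other 25 did not pass this filter. For the knockout against scramble, averaged over treatments, 1 HOX gene was higher and 1 lower at an adjusted p under 0.05, which is 2 of 14, and 11.7% of all tested genes were called (6.44% higher and 5.30% lower). A count of 2 of 14 is near that background. Of the 14, HOXA10 and HOXB5 had peaks in knockout libraries alone and passed the filter through them, which fixed the sign of their estimates, so no median or split by sign is given for the HOX genes.

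HOXC4 was the lower call, through the region it alone contains. Its coverage equals that of the HOXC cluster, and the log2 difference was −0.94 ± 0.10 SE (limma adjusted p = 0.000139), with all 6 knockout libraries below all 6 scramble libraries. Non-overlap in this direction was seen at 2.95% of tested genes, and HOXC4 was the only 1 of the 14. HOXC4 was also the only HOX call in each treatment, under DMSO (−0.86 ± 0.14, limma adjusted p = 0.00499, 1 of 14 against 6.02% of tested genes) and under dexamethasone (−1.02 ± 0.14, limma adjusted p = 0.00161, 1 of 14 against 6.44%). HOXC5 and HOXC6, with the shared region alone, differed by −0.03 (limma adjusted p = 0.902), and HOXC8 by −0.002 (0.996), a sign that turned under other settings. With windows of 25 kb HOXC5 and HOXC6 took in the second region and were called as well (−0.95, limma adjusted p = 0.00033).

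HOXB6 was the higher call, and the call depended on single libraries. It was covered over 795, 817 and 1168 bp in scramble cells with DMSO, 223, 0 and 847 bp with dexamethasone, 2937, 1716 and 2059 bp in knockout cells with DMSO and 900, 2023 and 916 bp with dexamethasone. The window ends at 48609986 and takes in the edge of chr17:48609061-48611399, the region that overlaps HOXB7. That edge was all the coverage of scramble DMSO libraries 1 and 2 and of scramble dexamethasone libraries 1 and 3. The same held for knockout dexamethasone libraries 1 and 3, so the values do not describe HOXB6 alone. Within each treatment the knockout libraries were all higher, while over both treatments the genotypes overlapped. How many tested genes separate within both treatments was not counted. With dexamethasone the nearest values were 847 bp in scramble and 900 bp in knockout libraries, both of that edge alone. The log2 difference was 1.07 ± 0.27 SE (limma adjusted p = 0.0258). The call ended in 6 of the 12 fits that left out 1 library, those without knockout DMSO library 1, knockout dexamethasone library 2, scramble DMSO library 1 or 2 or scramble dexamethasone library 1 or 2 (limma adjusted p up to 0.0642). It also ended with windows of 1 kb, with peaks of −log10 q of at least 2 alone, with equal covered length and without the gene filter. The estimate stayed positive, at 0.50 with windows of 25 kb and 1.79 with an offset of 100 bp in place of 500.

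The other tested HOXB genes did not pass. HOXB9, a posterior gene, differed by 0.71 ± 0.26 (limma adjusted p = 0.118), with 0, 0, 378, 639, 0 and 0 bp in scramble and 884, 509, 817, 535, 0 and 313 bp in knockout libraries (DMSO first, then dexamethasone). It reached the filter only with its knockout libraries, where it is higher, so its estimate and p-values do not stand as a test. HOXB9 was called, in place of HOXB6, without scramble dexamethasone library 1 or without knockout dexamethasone library 2 (limma adjusted p = 0.0413 in each case). HOXB5 was at 0 in all 6 scramble libraries and covered in 3 of 6 knockout libraries (431, 697 and 708 bp), by a region that overlaps HOXB6. HOXB7 (0.43, limma adjusted p = 0.209) had 1773 to 2806 bp under DMSO in scramble and 2623 to 3015 bp in knockout cells, and 642 to 2197 against 2264 to 2723 bp with dexamethasone. HOXB8 (0.34), HOXB3 (0.27) and HOXB4 (0.07) differed by less, and HOXB13 by −0.008. HOXB3 had its highest values in knockout DMSO library 1 (3716 bp) and knockout dexamethasone library 3 (3827 bp), against 1862 to 2411 bp in the other 10 libraries. In HOXA, HOXA13 (0.13) did not pass.

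**Figure D4:**
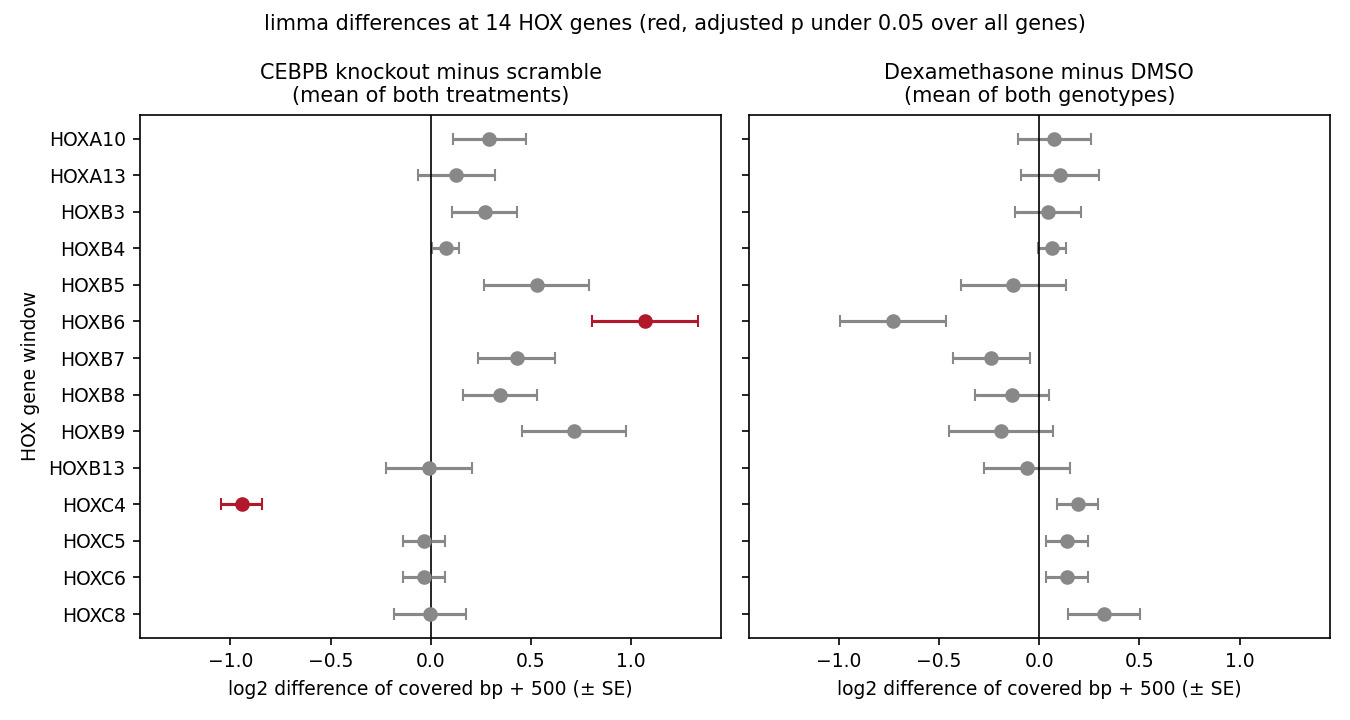
Log2 differences in covered base pairs (+ 500) with standard errors for the 14 tested HOX genes, for CEBPB knockout minus scramble averaged over treatments (left) and dexamethasone minus DMSO averaged over genotypes (right); red marks an adjusted p under 0.05 over all tested genes. HOXC4 lies at −0.94 and HOXB6 at 1.07 on the left, no gene is red on the right, and the side of HOXA10 and HOXB5 on the left was fixed by the filter.

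Dexamethasone moved no HOX gene past the threshold. With limma, 0 of 14 were called in scramble cells (0.0508% of all tested genes were), 0 of 14 in knockout cells (0.0381%), 0 of 14 in the average over genotypes (0.0635%) and 0 of 14 for the difference between the genotypes' drug responses (0.0127%). At an unadjusted p under 0.05 these counts were 1, 0, 1 and 0, against 7.36%, 6.17%, 8.17% and 5.31% of all tested genes, and every alternative setting also gave 0 adjusted calls. HOXB6 had the smallest p in the average, with 1 of 6 dexamethasone libraries above 1 kb against DMSO values of 795 to 2937 bp (log2 −0.73 ± 0.27, unadjusted p = 0.0202, limma adjusted p = 0.515). In the other dexamethasone libraries the HOXB6 window held the edge of the HOXB7 region alone or was at 0. Some DMSO values were that edge alone as well. HOXC4 differed by 0.19 (limma adjusted p = 0.672) and HOXC8 by 0.32 (0.680). With values of DMSO and dexamethasone libraries overlapping at all 14 genes, the share of non-overlapping genes among those tested was 0.114% higher and 0.229% lower.

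Over whole clusters no drug difference passed the test either. HOXB coverage was 5442 ± 1800 bp with dexamethasone and 7140 ± 2212 bp with DMSO (SD, n = 6), a difference of −1698 bp (exact permutation p = 0.055, 0.147 adjusted over 8 tests). It was −1702 bp in scramble and −1694 bp in knockout cells, and −1047 bp over both without knockout DMSO library 1. With peaks of −log10 q of at least 2 alone it was −877.5 bp. Total covered length was lower with the drug in both genotypes as well, and with the weakest peaks removed until all libraries covered the same length the HOXB difference was −1340 bp (exact permutation p = 0.125, 0.24 adjusted). HOXC differed by 157 bp (exact permutation p = 0.15, 0.3 adjusted), with 296 bp in scramble and 17.7 bp in knockout cells, and 86.9 bp over both without scramble DMSO library 1. HOXA and HOXD gave exact permutation p-values of 0.7 and 1.

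**Figure D5:**
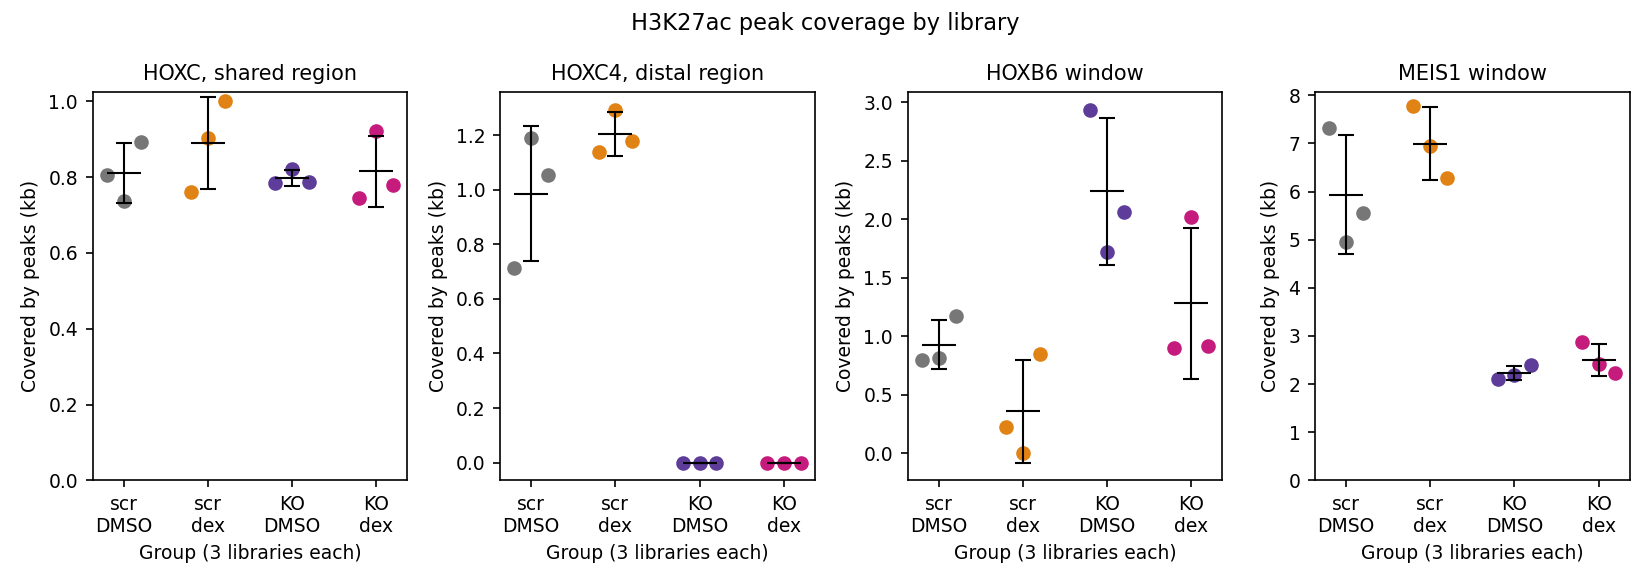
Base pairs (kb) covered by H3K27ac peaks in the 3 libraries of each group (points; bars are mean and SD) at the shared HOXC region, the second region inside HOXC4, the HOXB6 window and the MEIS1 window. The second HOXC4 region is at 0 in all 6 knockout libraries and MEIS1 is lower in all 6, while the shared region overlaps between groups.

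HOX proteins bind DNA with TALE-class partners such as the PBX and MEIS families, and 9 of 11 such cofactor genes were tested. MEIS1, the partner of HOXA9 in leukaemia, was covered over 7314, 4943 and 5552 bp in scramble cells with DMSO, 7782, 6936 and 6271 bp with dexamethasone, 2095, 2189 and 2388 bp in knockout cells with DMSO and 2876, 2420 and 2226 bp with dexamethasone. Every knockout library was below every scramble library, as at 2.95% of tested genes (log2 −1.33 ± 0.09 SE, limma adjusted p = 2.42e-06). For the knockout averaged over treatments 1 of the 9 was called higher and 1 lower, against 11.7% of all tested genes. TGIF1, a repressor of the same class, did not pass (−0.30, limma adjusted p = 0.0848).

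Genes of HOX cluster regulators were covered in nearly all libraries. All 17 trithorax and MLL genes and 19 of 20 Polycomb genes had peaks in all 12 libraries. With limma 0 of 17 and 0 of 19 tested genes were called for the knockout averaged over treatments, against 11.7% of all tested genes. At an unadjusted p under 0.05 the counts were 1 and 2, against 23.6% of all tested genes. In each dexamethasone contrast 0 were called, where 0.0127% to 0.0635% of all tested genes were. The Polycomb median for the knockout was −0.09 on the log2 scale, with 14 of 19 below 0. For the trithorax and MLL genes it was 0.017, with 10 of 17 above 0. Over all tested genes the median was −0.003, with 49.3% above 0.

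Of 23 tested genes that flank the clusters, 3 were higher in the knockout and 2 lower in the average over treatments, which is 5 of 23 against 11.7% of all tested genes. JAZF1, beyond HOXA, rose by log2 1.65 ± 0.18 (limma adjusted p = 0.000166), SKAP1, an adaptor gene of T cell signalling beyond HOXB, by 1.21 ± 0.19 (limma adjusted p = 0.002) and SKAP2, its paralog beyond HOXA, by 0.32 (limma adjusted p = 0.0438). The SKAP2 call ended without any 1 library other than scramble DMSO library 1 and knockout DMSO library 2 (limma adjusted p up to 0.0993). SKAP1 held 2639 to 6960 bp in scramble and 9796 to 13153 bp in knockout libraries. SNX10, beyond HOXA, fell by 1.30 on the log2 scale (limma adjusted p = 0.00504), and MTX2, a mitochondrial import gene beyond HOXD, fell by 0.40 (limma adjusted p = 0.00717). With windows of 25 kb SKAP1 and SNX10 stayed called, at 0.75 and −0.65.

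Within 500 kb on either side of the spans, the surroundings of the clusters differed in their own ways. Around HOXB, peaks covered 37.4 ± 3.69 kb in scramble and 45.3 ± 2.47 kb in knockout libraries (SD, n = 6), and 2 of 56 regions were covered in all 6 knockout and no scramble libraries, as were 0.992% of regions genome-wide. Around HOXC they covered 43.1 ± 5.39 and 42.8 ± 5.56 kb. There 0 of 74 regions were in all 6 scramble and no knockout libraries (1.54% genome-wide). Around HOXA peaks covered 8.54 ± 2.72 and 15.5 ± 1.92 kb. Around HOXD they covered 13.3 ± 1.08 and 4.08 ± 0.64 kb, with 4 of 24 regions in all 6 scramble and no knockout libraries (1.54% genome-wide), next to a cluster that was itself at 0 in 11 of 12 libraries. Around HOXA the range was 5.92 to 13.6 kb in scramble and 13.7 to 18.8 kb in knockout libraries. Around HOXD it was 12.3 to 14.7 kb and 3.52 to 5.24 kb. These lengths were not tested or set against other windows of this size.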

How the data were processed

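H3K27ac was profiled by CUT&RUN in 12 libraries, and per the submitters' processing notes reads were handled with Bowtie2 2.4.2 and MACS3 3.0 on hg38. The deposited files are 12 lists of broad peaks, 1 per library, with no control library named in the sources used here. Peak start and end are deposited as 0-based positions. The deposited score is 10 times the −log10 q-value, within 1, for 100% of peaks, and the deposited fold enrichment is a ratio of the peak's pileup to the local background, the meaning MACS gives that column. The authors also give −log10 p and −log10 q for each peak, with a minimum −log10 q between 0.523 and 0.535 in each list. Peaks on other sequences than chromosomes 1 to 22 and X (213 to 296 per library) were left out.

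Base pairs covered by peaks were summed within 5 kb of each of 19970 RefSeq genes. The 15740 genes covered in at least 3 libraries were tested as log2(base pairs + 500), quantile-normalised, with limma 3.58.1 (trend and robust options, R 4.3.3) over all 12 libraries and 4 group means, with Benjamini-Hochberg adjustment over all tested genes and a threshold of 0.05. Cluster lengths were compared by two-sided exact permutation within the other factor (400 permutations, 8 tests). Python 3.11.15 with pandas 2.3.3, NumPy 2.4.6, SciPy 1.17.1 and Matplotlib 3.10.9 was used, and the code was tested on simulated data. Promoter and miRNA sequences are RefSeq's (GRCh38.p14).

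The HOX members, the lists of flanking genes, TALE cofactors, trithorax and MLL, Polycomb and cell type markers, and the tests were chosen with earlier results of these data known. All 39 HOX genes were accounted for in the counts. Some genes' own values are not reported here. Library values were given for called members and, per cluster, for up to 2 genes of largest coverage, up to 2 of smallest p for the knockout and 1 for the drug. From the lists, called genes and up to 3 of smallest p were eligible, and CEBPB was always included. Alternatives changed the window, peak strength, covered length, log offset, normalisation, filter, limma options, replicate block, cluster span and set of libraries. Those for genes other than HOX genes were added after seeing the data.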

Additional observations from a re-analysis of the deposited data

How the results depend on the processing

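The lower HOXC4 coverage in the knockout was called by limma in all 11 alternative settings (log2 −1.22 to −0.90) and without any 1 of the 12 libraries. The HOXC cluster difference kept its call in all settings but the replicate block, where its unadjusted p was already the smallest possible. HOXB6 was called in 7 of 11 settings. The HOXB cluster difference of 2793 bp was 1765 bp with strong peaks alone (adjusted exact permutation p = 0.12) and 2142 to 3204 bp without 1 library, with 4 of 12 calls lost. Same-numbered libraries of different groups did not deviate together (r from −0.051 to 0.082 over 18 pairs). With the replicate number as a block the differences stayed at 2793 bp for HOXB and −1138 bp for HOXC. Neither passed (exact permutation p = 0.0312, the smallest this pairing allows, 0.125 adjusted). With only 2 clusters at that smallest p, the adjustment over 8 tests cannot give a call, so the missing calls do not bear on the differences. The limma block left the count of HOX calls at 2. For the knockout averaged over treatments 1 HOX gene was called with windows of 1 kb, strong peaks alone, equal covered length or no filter. Without 1 library 1 to 2 were called, with HOXB9 in place of HOXB6 in 2 of these fits. HOXB9 passed the filter only with its knockout libraries, so those calls do not stand as a test. With windows of 25 kb 8 were called (HOXB3, HOXB6 to HOXB9 and HOXC4 to HOXC6), and 3 under DMSO and 3 under dexamethasone (HOXC4 to HOXC6), where 1 to 2 were called without 1 library. These wider windows share peaks between neighbours. The HOXA drug difference of −137.5 bp turned to 48.2 bp with strong peaks, 58.8 bp at equal covered length and −213.8 to 15.0 bp without 1 library.

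Some uncalled estimates near 0 changed sign. For the knockout these were HOXC8 (0.041 with strong peaks, 0.15 at equal covered length, 0.009 with the 100 bp offset, −0.12 to 0.07 without 1 library), HOXA13 (−0.027 to 0.206), HOXB13 (−0.16 to 0.10), HOXC5 and HOXC6 (−0.10 to 0.011) and CEBPB (0.026 without normalisation, 0.01 with scaling to the total). For the drug they were HOXA10 (−0.12 with 25 kb, −0.016 at equal length, −0.04 to 0.17 without 1 library), HOXA13 (−0.086 without normalisation, −0.066 with scaling, −0.053 to 0.18), HOXB3 (−0.12 with 25 kb, −0.043 without normalisation, −0.086 to 0.14), HOXB4 (−0.14 with 25 kb), HOXB8 (0.046 with 1 kb, −0.281 to 0.031), HOXC8 (−0.065 at equal length) and HOXB13 (−0.222 to 0.038). The causes were not tested. Over all tested genes the drug calls moved most: 8 in scramble cells became 63 with strong peaks, 37 at equal length and 1 with that genotype's libraries alone, and in knockout cells 6 became 36, 21 and 0. Without normalisation the splits were 9 higher and 4 lower and 5 and 5, against 7 and 1 and 6 and 0. The average over genotypes went from 10 to 4 to 55 calls, the interaction from 2 to 1 to 13. Knockout counts stayed within 1.5 times of 1849 for the average, 947 under DMSO and 1013 under dexamethasone in every setting run.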

Other observations

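Other noncoding genes of the HOX clusters had few peaks. The region inside HOXA13's window lay 850 bp from the start of HOTTIP, a long noncoding RNA gene at the posterior end of HOXA, and was covered in 3 libraries. None of the 8 miRNA hairpins in the 4 spans lay in a peak, MIR196A1, MIR196A2, MIR196B and MIR10B among them.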
